A study of Mus musculus with 20 samples.

Results

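The complement and coagulation factors described here are 36 genes whose proteins the liver secretes into plasma, and their transcripts were measured by RNA-seq in the livers of 20 mice. They were chosen by name and not by a rule on their values, with earlier results of these data known. A gene was taken where its row of the count table carried its symbol in the GENCODE M21 annotation and held a total of at least 10 counts, and all 36 met this among 15522 such genes of 21780 in the table. The mice were male C57BL/6J and all ate a high-fat diet (HFD, 42% of energy from fat) from 8 weeks of age. At 10 weeks of age, each was gavaged a single time with corn oil (HFD control), with Aroclor 1260 at 20 mg/kg (HFD + Aroclor), with PCB 126 at 20 µg/kg (HFD + PCB 126) or with both at these doses (HFD + Aroclor + PCB 126, called the combined exposure below). Aroclor 1260 is a commercial polychlorinated biphenyl (PCB) mixture of mostly non-dioxin-like congeners, and PCB 126 is a dioxin-like congener. Each group had 5 libraries, each from 1 liver. The labels give 12 weeks of treatment, and the methods put the gavage after 2 weeks of a 12-week diet. No group without the HFD was studied, so each value is relative to fat-fed mice. The doses of Aroclor and PCB 126 differ, and these exposures were not compared with each other.

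Coagulation is a cascade of plasma proteases. Tissue factor with factor VII, or factors XII and XI, lead to factor X, which with factor V turns prothrombin into thrombin. Protein C, protein S and antithrombin restrain it, and plasmin, made from plasminogen, dissolves the clot. Complement is another cascade that antibodies, lectins or spontaneous turnover of C3 set off. C3 is cleaved, and C5 to C9 then assemble a pore in the target membrane. Hepatocytes make most of these proteins, many as abundant transcripts.

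**Figure D1:**
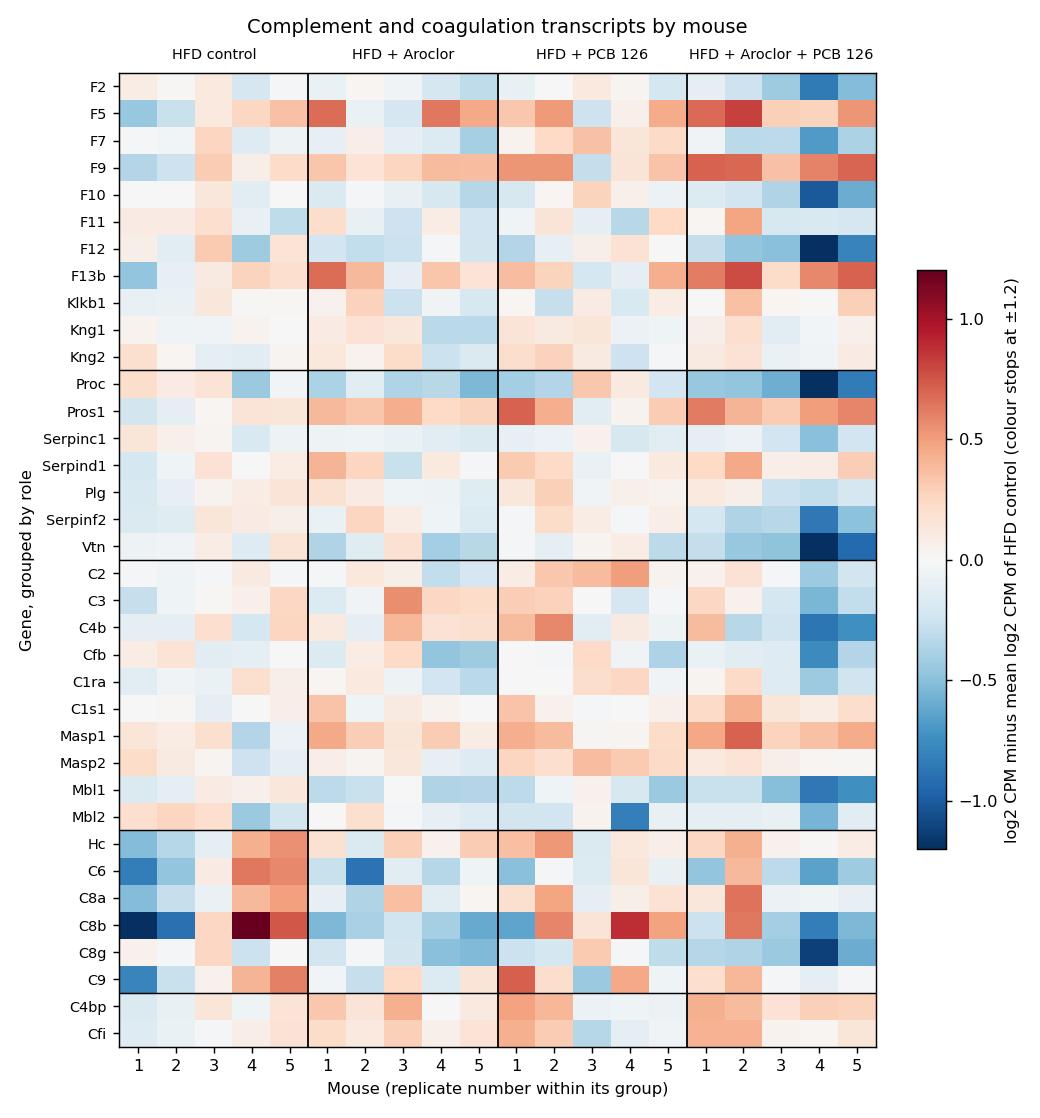
Level of each of the 36 transcripts (rows, grouped by role) in each of the 20 mice (columns), as log2 CPM (counts scaled to library size) minus the mean log2 CPM of HFD control; the colour scale stops at plus and minus 1.2. The lowered block of F2, F7, F10, F12, Proc, Serpinf2, Vtn and C8g is deepest in replicate 4 of the combined exposure, and C8b and C6 range widely among the HFD control mice.

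Counts were scaled by library size with TMM and are given as CPM, as mean ± SD over 5 mice or for each mouse in the order of replicates 1 to 5. The depth was 21836506 to 36854887 counts per library, and the lowest count of any of the 36 genes in any library was 987, so counting error was small beside the spread between mice. The 36 genes together took 2.20% to 3.02% of the counts of a library, with a mean of 2.65% ± 0.136 in HFD control and 2.44% ± 0.228 in the combined exposure. Per kilobase of exon, the highest level in HFD control was that of C3, the central complement component, at 1003 ± 131 CPM per kb. Vtn, which encodes vitronectin, stood next at 986 ± 86.8, within the SD of C3. Kng1 (kininogen, the source of bradykinin) followed at 753 ± 23.1, Plg (plasminogen) at 612 ± 57.7 and F2 (prothrombin) at 355 ± 29.8 CPM per kb. The lowest levels per kb were those of Masp1, a protease of the lectin pathway, at 15.1 ± 2.17, C2 at 16.4 ± 0.722, Pros1 (protein S) at 18.2 ± 2.00 and F11 at 23.6 ± 3.15 CPM per kb. The SDs of Masp1, C2 and Pros1 overlap. C3 reads came to 4232, 4936, 5187, 5333 and 6091 CPM in the HFD control mice and 6100.2, 5309, 4425, 3496 and 4167 CPM with the combined exposure. C3 stood at 4579.6, 4979, 7542, 6101 and 5982 CPM with Aroclor and at 6265, 6207, 5091, 4463 and 5072 CPM with PCB 126. All groups overlap for C3, and its log2FC with the combined exposure was -0.13 ± 0.16 (SE, adjusted p = 0.556).

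The question of the single exposures is whether either agent on the HFD changes these transcripts on its own. None of the 36 passed the threshold (an adjusted p under 0.05 in edgeR's quasi-likelihood test, adjusted after Benjamini-Hochberg over all 15522 genes) with Aroclor, where the background over all genes was 0% called. None passed with PCB 126 either, where the background was 0.116%. DESeq2 also called 0 of the 36 in both, beside 0.87% of all genes with Aroclor and 2.06% with PCB 126. At an unadjusted p under 0.05, edgeR had 4 members with Aroclor (Proc, Pros1, Masp1 and Mbl1) and 3 with PCB 126 (Pros1, C2 and Masp2). Over all genes, 17.2% with Aroclor and 14.7% with PCB 126 had such a p. The smallest adjusted p was 0.222 for Pros1 with Aroclor and 0.186 for Masp2 with PCB 126. The median log2FC of the 36 was -0.036 with Aroclor and 0.073 with PCB 126, beside -0.013 and -0.018 over all genes.

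**Figure D2:**
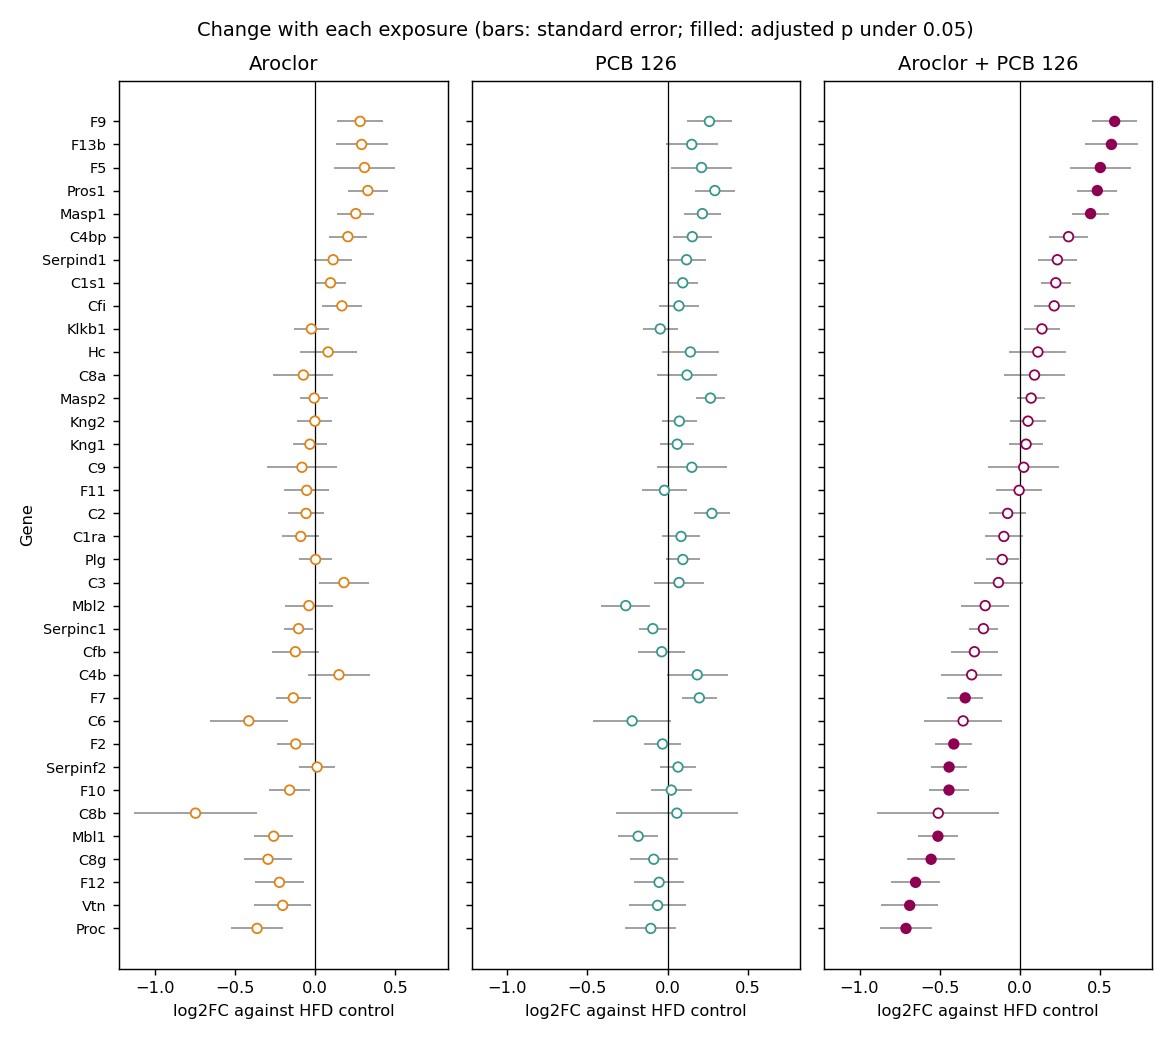
Log2FC of each of the 36 genes (rows) against HFD control in 3 panels, for Aroclor, PCB 126 and the combined exposure; bars are the standard error and filled points passed an adjusted p under 0.05. No point is filled in the single-exposure panels, and 14 are filled with the combined exposure, 5 to the right of 0 and 9 to the left.

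The 95% intervals give, gene by gene, the sizes of change that the fit allows at this number of mice. They are not adjusted over the 36 genes and come from the fit without GC correction. With PCB 126, the interval of every one of the 36 log2FC lay within -1 and 1, the widest being that of C8b from -0.73 to 0.85. With Aroclor, 35 of 36 did, and the exception was C8b from -1.54 to 0.049. Simulated counts kept the groups, library sizes and spread of each gene, but no difference between libraries in how counts follow GC content. In them, edgeR recovered 79.5% of genes changed by a log2FC of 1 with Aroclor and 84.5% with PCB 126. Of those changed by 0.5, it recovered 12.5% and 6.50%. Each rate is over 200 changed genes of the whole simulated table and not over the 36. Recovery at the level and spread of the 36 genes was not tested. These rates therefore do not give the chance of detecting such changes in them. Masp2, the lectin pathway protease that cleaves C4 and C2, came closest with PCB 126. Its HFD + PCB 126 mice stood at 370.4, 355, 399.9, 385 and 362 CPM and its HFD control mice at 359.6, 332, 316, 260.1 and 286 CPM. The groups overlap through 1 control mouse at 359.6 CPM, and the log2FC was 0.27 ± 0.088 (SE). With Aroclor, Masp2 stood at 326, 316, 340.2, 288 and 278 CPM, and with the combined exposure at 335, 346, 325, 314 and 312 CPM.

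With the combined exposure against HFD control, 14 of the 36 passed the threshold, 5 higher and 9 lower. This is 38.9%, near the background of 32.8% of all genes called (15.8% higher and 17% lower), and after the GC correction described below 2 of the 36 passed, beside 11.3% of all genes. The 5 that rose were F9, F13b, F5, Pros1 and Masp1, by a log2FC of 0.44 to 0.59. The 9 that fell were Proc, Vtn, F12, C8g, Mbl1, F10, Serpinf2, F2 and F7, by 0.34 to 0.71 on the log2 scale. The other 22 did not pass, and the median over all 36 was -0.088 beside -0.00096 over all genes. In 5 genes all mice of the combined exposure lay above all HFD control mice and in 6 all lay below, where the background was 10.6% and 8.14% of all genes. After GC correction, these counts were 0 above and 3 below (F10, Serpinc1 and Mbl1), beside 4.01% and 5.74% of all genes, so the separations of groups given below for F9, Pros1, Masp1, C1s1, C4bp, Proc, Serpinf2, Vtn and C8g are those before the correction. Since these are bulk livers, fewer cells of a type and less RNA per cell cannot be told apart. No deposited value measures the plasma proteins or clotting.

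**Figure D3:**
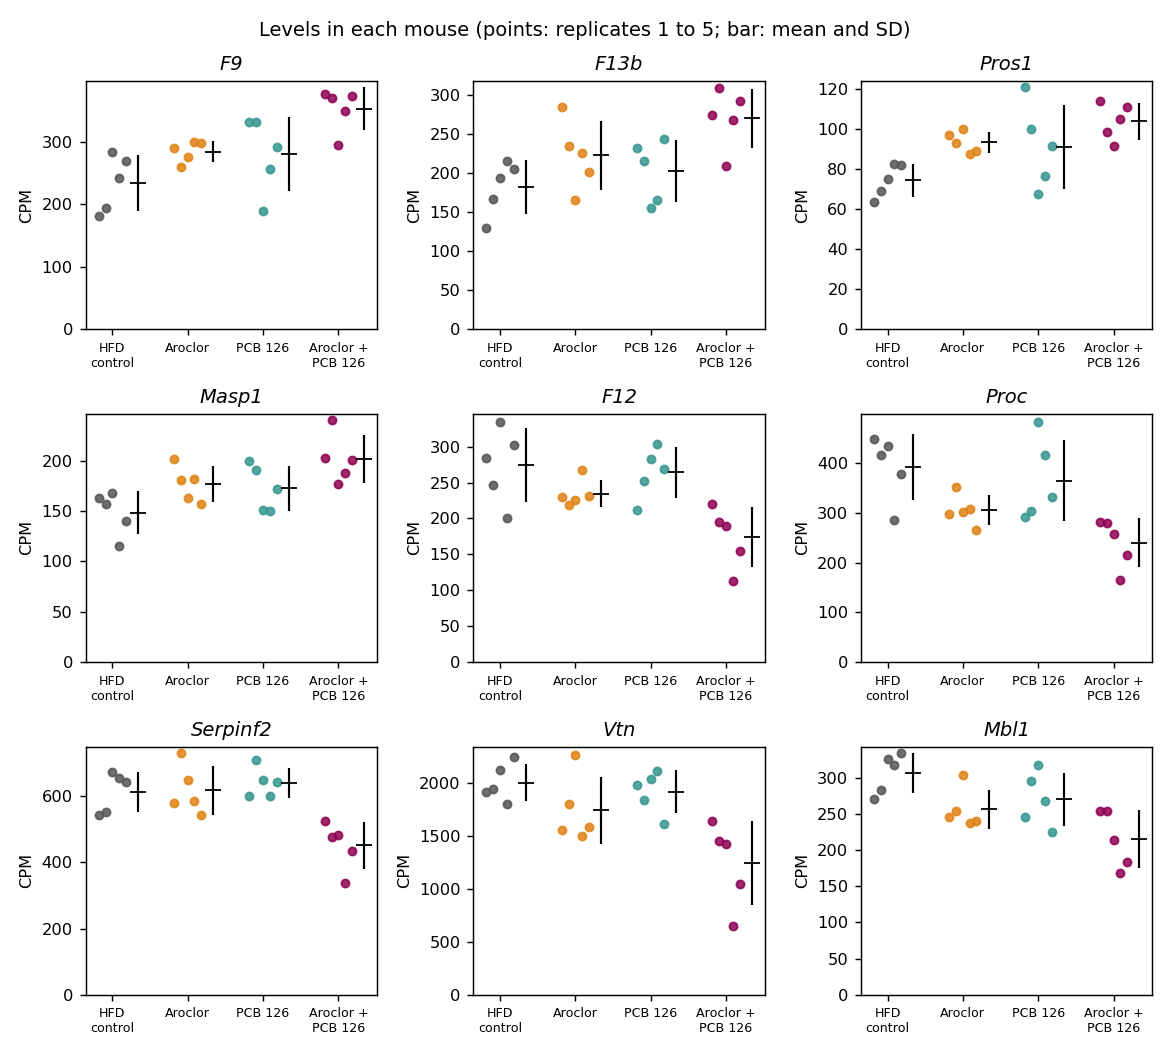
CPM (axes from 0) of 9 of the 14 genes that passed the threshold with the combined exposure, in each mouse of the 4 groups; points are replicates 1 to 5 and bars the mean and SD. F9, Pros1 and Masp1 have all combined-exposure mice above all HFD control mice, and Proc, Serpinf2, Vtn and Mbl1 have all of them below, while F13b and F12 overlap.

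Of the 11 procoagulant and contact factors, 3 rose, 4 fell and 4 did not pass. F9 encodes factor IX, the protease that with factor VIII activates factor X and whose loss causes haemophilia B. F9 (ENSMUSG00000031138, GRCm38 chrX:59999464-60030759) read 181, 194, 284, 242 and 268 CPM in HFD control and 376, 370.4, 294, 349 and 373 CPM with the combined exposure. All 5 combined-exposure mice lay above the highest control mouse, and the log2FC was 0.59 ± 0.14 (SE, adjusted p = 0.00425). Both single exposures overlapped both of these groups, at 290.3, 259, 275, 299 and 297 CPM with Aroclor and 332, 331, 189, 257 and 291 CPM with PCB 126. F13b encodes the carrier subunit of factor XIII, which cross-links fibrin. F13b (ENSMUSG00000026368, chr1:139501702-139523752) stood at 129, 167, 193, 215 and 205 CPM in control mice against 274, 309, 209, 268 and 292 CPM with both agents. Only the lowest of the combined-exposure mice fell within the control range, and the log2FC was 0.57 ± 0.16 (adjusted p = 0.0111). With Aroclor, F13b was 285, 235, 166, 226 and 201 CPM, and with PCB 126 it was 232, 215, 155, 165 and 243 CPM. F5, the cofactor of factor X, was 456 ± 104 CPM in HFD control and 646 ± 108 with the combined exposure, and the ranges overlapped. Its log2FC of 0.50 ± 0.19 passed at an adjusted p of 0.0499, and it was called in 7 of 20 fits that left out 1 mouse each.

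The 4 that fell act at the start and in the common path of clotting. F12 encodes factor XII, the surface-activated protease of the contact system. F12 (ENSMUSG00000021492, chr13:55417958-55426793) gave 284, 247, 335, 201 and 303 CPM in HFD control and 221, 194, 190.04, 113 and 154 CPM with the combined exposure. Only 1 control mouse reached down into the range of the combined exposure, and the log2FC was -0.65 ± 0.16 (adjusted p = 0.00400). Aroclor mice had 229, 219, 226, 267 and 231 CPM of F12 and PCB 126 mice 212, 252, 283, 304 and 269 CPM. F10, the protease that cleaves prothrombin, had 353, 352, 387, 324 and 353 CPM in HFD control and 315, 302, 275, 176 and 233 CPM in the combined exposure. All 5 combined-exposure mice were below all controls for F10 (ENSMUSG00000031444, chr8:13037308-13056676), with a log2FC of -0.44 ± 0.13 (adjusted p = 0.0117). F10 was 313, 351, 332, 309.6 and 279 CPM with Aroclor and 309, 358, 426, 369 and 336 CPM with PCB 126. F2 itself (ENSMUSG00000027249, chr2:91625320-91636414) read 1734, 1644, 1764, 1417 and 1605 CPM in control mice and 1508, 1373, 1213, 904 and 1137 CPM in combined-exposure mice, where the groups meet in 1 mouse of each. Its log2FC was -0.41 ± 0.12 (adjusted p = 0.0105), beside 1539.9, 1657, 1578, 1412 and 1319.6 CPM with Aroclor and 1533, 1625, 1764, 1662 and 1407 CPM with PCB 126.

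F7 encodes factor VII, the partner of tissue factor. It had the smallest p of the 36 genes in the joint test over the 3 exposures. F7 (ENSMUSG00000031443, chr8:13026034-13035809) stood at 74.2, 72.9, 89.5, 67.2 and 71.7 CPM in HFD control, 70.00, 79.2, 69.01, 66.6 and 56.8 CPM with Aroclor and 76.99, 88.5, 95.1, 82.7 and 87.6 CPM with PCB 126. With the combined exposure it stood at 72.8, 59.6, 59.96, 46.6 and 57.6 CPM. 1 combined-exposure mouse lies within the control range, and all 5 lie below all PCB 126 mice. The log2FC against HFD control was -0.34 ± 0.11 (adjusted p = 0.0235), and this call was lost without control replicate 3 or combined-exposure replicate 5. F7 and F10 are neighbours on the same strand of chromosome 8, 1498 bases apart. Klkb1, Kng1, Kng2 and F11 did not pass. Klkb1 (plasma prekallikrein) had a log2FC of 0.14 ± 0.11, Kng1 of 0.039 ± 0.10, Kng2 of 0.051 ± 0.11 and F11 of -0.0046 ± 0.14.

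Among the 7 anticoagulant and fibrinolytic genes, 1 rose and 3 fell. Proc encodes protein C, which as an activated protease destroys factors V and VIII. Proc (ENSMUSG00000024386) was 449, 416, 434, 285 and 379 CPM in HFD control and 282, 279, 258, 165 and 216 CPM with the combined exposure. All combined-exposure mice lay below all controls, the highest of them by a narrow margin, and the log2FC of -0.71 ± 0.16 was the lowest of the 36 (adjusted p = 0.00303). Aroclor mice stood at 299, 352, 302, 307 and 267 CPM of Proc and PCB 126 mice at 292, 303, 484, 416 and 332 CPM. Pros1, its cofactor protein S, went the opposite way. Pros1 (ENSMUSG00000022912, chr16:62854307-62929346) had 63.7, 68.8, 75.01, 82.5 and 81.8 CPM in HFD control and 114, 98.3, 91.5, 105 and 111 CPM with the combined exposure, with no overlap. The log2FC was 0.48 ± 0.12 (adjusted p = 0.00618). The 5 Aroclor mice, at 97.1, 93.02, 100.13, 87.6 and 88.9 CPM, also lay above all controls. The PCB 126 mice, at 121, 100.04, 67.3, 76.4 and 91.4 CPM, ranged from within the control range to far above it. Pros1 was the 1 gene of the 36 without overlap between Aroclor and HFD control mice, where 1.74% of all genes were higher without overlap, and it did not pass the test there.

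Serpinf2 encodes α2-antiplasmin, the main inhibitor of plasmin. Serpinf2 (ENSMUSG00000038224, chr11:75431732-75439591) was 542, 551, 674, 654 and 642 CPM in HFD control, 579, 729.99, 648, 587 and 544 CPM with Aroclor and 601, 710.4, 648, 601 and 644 CPM with PCB 126. With the combined exposure it was 526, 476, 483, 336 and 433 CPM, below every mouse of each other group. The log2FC against HFD control was -0.44 ± 0.11 (adjusted p = 0.00595). Vtn, vitronectin, stabilises the plasminogen activator inhibitor PAI-1 and blocks insertion of the terminal complement complex. Vtn (ENSMUSG00000017344, chr11:78499091-78502324) read 1909.9, 1942, 2118, 1797 and 2240.4 CPM in HFD control and 1639.9, 1456, 1424, 651 and 1046 CPM with the combined exposure. Replicates 4 and 5 stood far below the other mice, and the groups did not overlap. The log2FC of Vtn was -0.69 ± 0.18 (adjusted p = 0.00669), beside 1551, 1799.5, 2261, 1502 and 1583 CPM with Aroclor and 1982, 1839, 2040.1, 2116 and 1609 CPM with PCB 126. Serpinc1 (antithrombin), Serpind1 (heparin cofactor II) and Plg did not pass, with a log2FC of -0.23 ± 0.089, 0.23 ± 0.12 and -0.11 ± 0.10. Serpinc1 missed the threshold at an adjusted p of 0.0557. It passed with RLE or upper-quartile normalization, filterByExpr, the FPKM filter of the methods, the replicate block, DESeq2 and the GC corrections by a curve described below. With no filter, only the groups compared, the GC slope covariate or without combined-exposure replicates 4 and 5, it did not. Of the fits without 1 mouse, it passed in some.

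Of the 10 genes for C3, C4 and the proteases and lectins that act on them, 1 rose, 1 fell and 8 did not pass. Masp1 (ENSMUSG00000022887, chr16:23449417-23520815) encodes the protease that switches on the lectin pathway by activating Masp2. Its control mice stood at 163, 157, 168, 115 and 139.8 CPM and its combined-exposure mice at 203, 241, 177, 188 and 201 CPM, with no overlap. The log2FC was 0.44 ± 0.12 (adjusted p = 0.00700). Masp1 was 202, 181, 163, 182 and 157 CPM with Aroclor and 199.6, 191, 151, 151 and 172 CPM with PCB 126, both overlapping the control mice. Mbl1 (ENSMUSG00000037780, chr14:41151458-41159601) encodes a mannose-binding lectin that recognises microbial sugars and carries these proteases. It read 271, 282, 326, 318 and 334 CPM in HFD control and 254, 254, 214, 168 and 184 CPM with the combined exposure, with no overlap, and the log2FC was -0.51 ± 0.12 (adjusted p = 0.00427). Mbl1 stood at 245, 253, 304, 238 and 239.95 CPM with Aroclor and 246, 295, 317, 267 and 225 CPM with PCB 126. Mbl2, the other mannose-binding lectin, had a log2FC of -0.22 ± 0.15 (adjusted p = 0.294). The combined-exposure mice of C1s1, which encodes the C1s protease of the classical pathway, all lay above the control mice, with a log2FC of 0.22 ± 0.094 (adjusted p = 0.0730). C2, C4b, Cfb, C1ra and Masp2 had log2FCs from -0.30 for C4b to 0.070 for Masp2, and C4b shares much of its sequence with C4a, so its reads may be split or pooled.

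C8g, which encodes the γ chain of C8, was the 1 gene of 6 for the membrane pore that passed. It gave 462, 437, 528, 372 and 444 CPM in HFD control and 352, 347, 328, 205 and 295 CPM with the combined exposure, with no overlap. The log2FC of C8g (ENSMUSG00000015083, chr2:25498651-25501719) was -0.55 ± 0.15 (adjusted p = 0.00818). Aroclor mice had 384, 440.4, 383, 314 and 308 CPM and PCB 126 mice 373, 386, 553, 441 and 360.1 CPM. The other 5, which encode C5 (Hc), C6, the α and β chains of C8 and C9, did not pass. Neither of the complement inhibitors passed. C4bp, which with factor I inactivates C4b protein, had all combined-exposure mice above all controls, at a log2FC of 0.30 ± 0.12 (adjusted p = 0.0586). Cfi (factor I) had 0.21 ± 0.13.

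The spread of the terminal genes among the HFD control mice was wide. C8b read 62.3, 87.9, 194, 403 and 274 CPM in these mice, a 6.47-fold range. C6 ranged 2.75-fold, C9 2.62-fold, Hc 2.09-fold and C8a 2.01-fold. Replicate 1 was the lowest control mouse and replicate 2 the next in each of these 5 genes, and replicates 4 and 5 were the highest pair. In C8g, by contrast, the control mice ranged 1.42-fold and replicate 4 was the lowest. These 5 of 36 genes (13.9%) were the ones with a range over 2-fold in HFD control, beside 12.5% of the 2504 genes with a control mean of at least 50 CPM. With Aroclor, C8b was 113, 125, 138, 124 and 108 CPM, all within the control range. After the GC correction described below, the control range was 6.16-fold for C8b and 2.55-fold for C6. With SEs of 0.38 for C8b and 0.24 for C6, a log2FC of -0.51 for C8b and -0.35 for C6 with the combined exposure did not pass. C8a and C8b lie 11130 bases apart on opposite strands of chromosome 4.

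**Figure D4:**
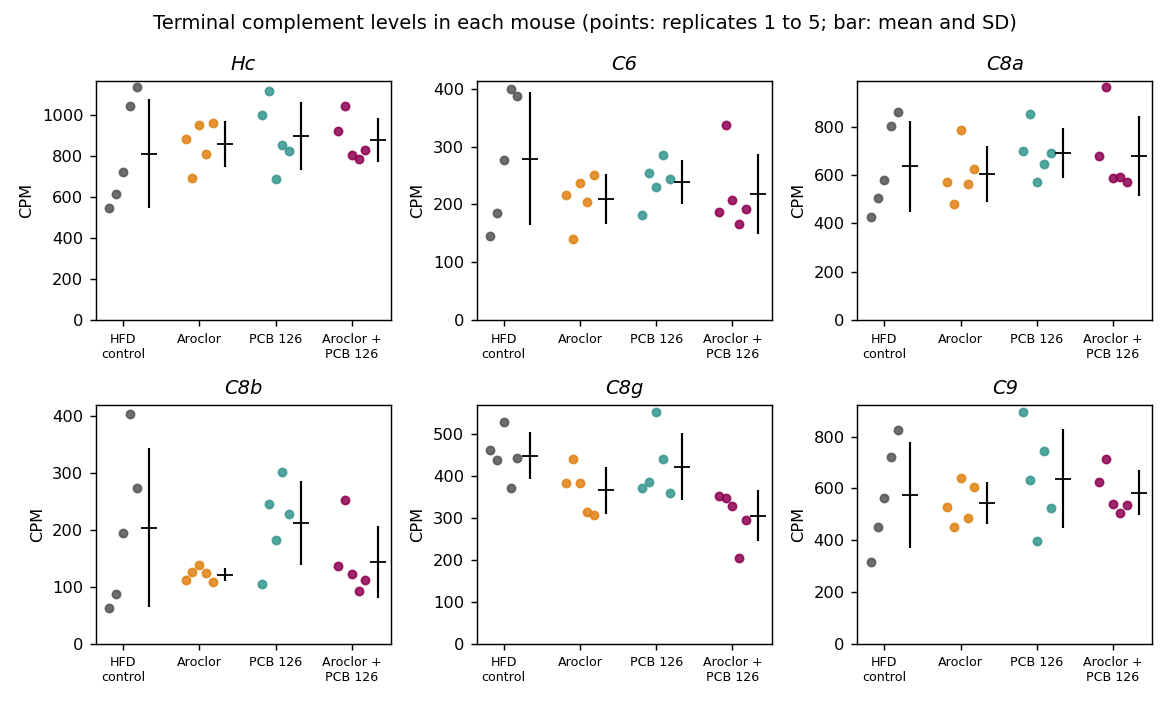
CPM (axes from 0) of the 6 terminal complement genes in each mouse of the 4 groups; points are replicates 1 to 5 and bars the mean and SD. In Hc, C6, C8a, C8b and C9 the HFD control mice span more than 2-fold, with replicates 1 and 2 lowest, while C8g is lower with the combined exposure.

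The direction of change went with the base composition of the transcript. GC content, taken from the longest annotated transcript of each gene, was 39.03% (F9) to 48.01% (Masp1) in the 5 genes that rose and 49.1% (Mbl1) to 58.5% (F12) in the 9 that fell, so these ranges do not overlap. Over the 36 genes, Pearson's r of log2FC with GC content was -0.80, and over 11294 genes of the table with a mean log2 CPM above 0 it was -0.73. These points share their libraries and no p is given. The same held outside these genes, where called genes that rose had a median GC of 43.1% and those that fell 55.9%. The libraries themselves differed in this respect. The slope of log2 CPM over GC, per 10 percentage points and relative to the mean library, was 0.24 ± 0.17 in HFD control, 0.011 ± 0.081 with Aroclor, 0.11 ± 0.19 with PCB 126 and -0.36 ± 0.19 with the combined exposure. Within the combined exposure it was lowest in replicate 4 (-0.62) and replicate 5 (-0.47). Replicate 4 was also the lowest of the 5 mice in all 9 genes that fell, and replicate 5 the next lowest. Preparation batches of the libraries are not given in the sources used here.

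**Figure D5:**
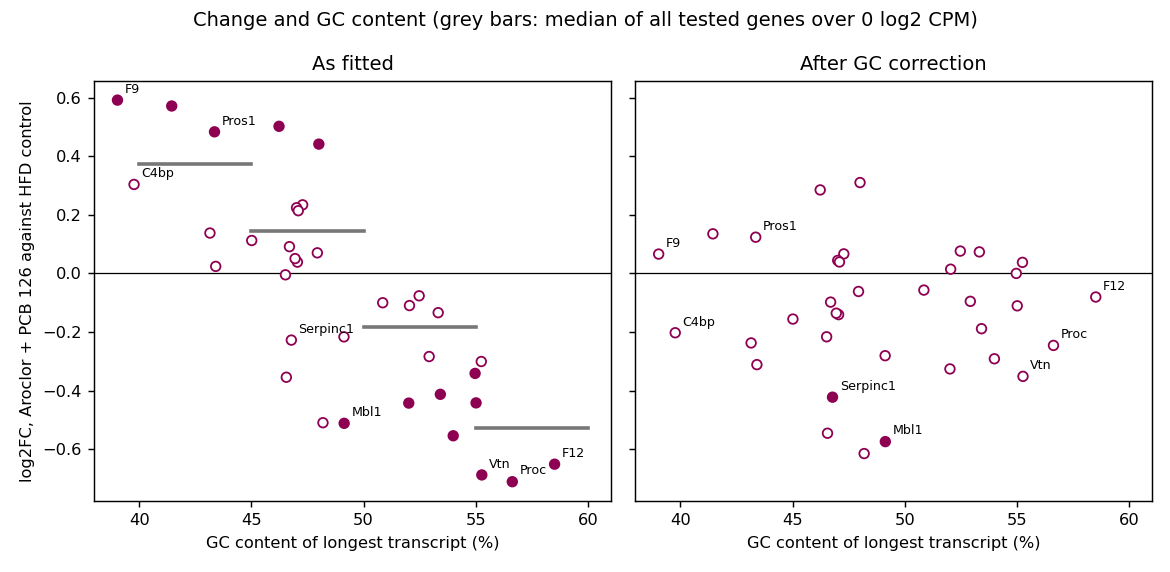
Log2FC of the 36 genes with the combined exposure against GC content of the longest transcript (%), as fitted (left) and after GC correction (right); filled points passed an adjusted p under 0.05, and grey bars on the left are the median of all tested genes with a mean log2 CPM above 0 in 5-point bins. The points follow the grey bars on the left, from F9 at 0.59 to Proc at -0.71, and only Mbl1 and Serpinc1 are filled on the right.

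When a smooth curve over GC was taken out of each library, 2 of the 36 genes passed against HFD control, both lower, beside 11.3% of all genes. Mbl1 had a log2FC of -0.57 (adjusted p = 0.00634) and Serpinc1 of -0.42 (adjusted p = 0.0111). Mbl1 is thus the 1 gene of the 14 called with and without this correction, and it lies at 49.1% GC, near the median of all tested genes at 49.8%. At a like GC content, members differed in direction before the correction. Masp1 at 48.01%, Mbl1 at 49.1% and Mbl2 at 49.1% had log2FCs of 0.44, -0.51 and -0.22, and Mbl2 did not pass. They are among 16 members at 45% to 50% GC, whose median log2FC was 0.061. The median of the 2980 genes in this range with a mean log2 CPM above 0 was 0.14. Corrected values of the others were 0.066 for F9, 0.14 for F13b, 0.12 for Pros1, 0.28 for F5 and 0.31 for Masp1, none of which passed. Among those that fell, they were -0.35 for Vtn, -0.33 for F10, -0.29 for C8g, -0.25 for Proc, -0.080 for F12 and 0.00014 for F7. GC correction with the replicate number as a block left 3 of the 36 and with gene length 2, beside 1818 and 1767 of 15522 genes. With each library's GC slope as a covariate, chosen after seeing the data, 0 of the 36 passed in edgeR, beside 3.43% of all genes. At an unadjusted p under 0.05 that fit had 1 of the 36, beside 1976 of 15522 genes. Each of these fits also takes out any change in expression that follows GC.

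The comparisons of the combined exposure with each single exposure ask whether the other agent adds a change. Against HFD + PCB 126, 9 of the 36 passed and all 9 were lower, beside 16.7% of all genes called and 11% called lower. They were Vtn (-0.62 ± 0.18), Proc (-0.61 ± 0.16), F12 (-0.60 ± 0.15), F7 (-0.54 ± 0.11), Serpinf2 (-0.51 ± 0.11), C8g (-0.47 ± 0.15), F10 (-0.47 ± 0.13), F2 (-0.38 ± 0.12) and C2 (-0.35 ± 0.11), as log2FC ± SE. The smallest adjusted p was 0.0136 for F7. C2, whose protein forms the classical C3 convertase with C4b protein, was 67.8, 79.6, 82.9, 89.9 and 65.4 CPM with PCB 126 and 66.1, 71.7, 62.4, 47.01 and 54.7 CPM with both agents. The C2 mice of these groups overlap, and the HFD control mice stood at 62.9, 61.5, 62.7, 68.6 and 62.7 CPM. In 5 genes, F7, Proc, Serpinf2, Masp2 and C8g, all combined-exposure mice lay below all PCB 126 mice, where 5.93% of all genes did. Leaving out single mice moved these calls together with those over all genes. Without PCB 126 replicate 3, 12 of the 36 had an unadjusted p under 0.05, as did 4174 of 15484 genes. In that fit 0 of the 36 passed the threshold, beside 0.0258% of all genes. Without PCB 126 replicate 4 there were 2 beside 1.86%, without combined-exposure replicate 5 there were 2 beside 1.74% and without combined-exposure replicate 4 there were 6 beside 6.19%. The log2FCs moved less. Over the 20 fits without 1 mouse, F7 ranged from -0.62 to -0.50 and Serpinf2 from -0.57 to -0.46, and both missed the threshold only without PCB 126 replicate 3, at adjusted p-values of 0.0530 and 0.0533. C8g ranged from -0.52 to -0.35 and C2 from -0.42 to -0.29. No gene of the 36 passed after GC correction, where 1.22% of all genes did.

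Against HFD + Aroclor, 0 of the 36 passed in edgeR, where 0.412% of all genes were called. At an unadjusted p under 0.05 there were 8 of the 36, beside 23.4% of all genes. DESeq2 called 1, Serpinf2, beside 8.65% of all genes. Serpinf2 had a log2FC of -0.45 ± 0.11 (adjusted p = 0.0615 in edgeR) and was the 1 gene of the 36 whose combined-exposure mice all lay below all Aroclor mice, where 4.17% of all genes did. The 95% intervals of 35 of the 36 log2FC lay within -1 and 1. The interaction asks whether the log2FC of both agents together departs from the Aroclor and PCB 126 log2FCs added up. It passed for 0 of the 36 in edgeR and in DESeq2, with a background of 0% in edgeR. In edgeR, 3 of the 36 had an unadjusted p under 0.05 (Serpinf2, C4b and F7), beside 11.9% of all genes. The interaction of Serpinf2 was -0.52 ± 0.16 (SE, adjusted p = 0.286). These comparisons share mice, and none is independent of the others.

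Promoters were read for 28 of the 36 genes from RefSeq (GRCm38.p6), as 250 bases before to 50 after the start of transcription. The letters GCGTG, the core bound by the dioxin receptor AhR with its partner Arnt, were looked for on both strands because PCB 126 is an AhR ligand. They stand in 5 of the 28 promoters (17.9%) beside 32.5% of 27025 promoters. Those of the 5 genes that passed with the combined exposure are Vtn and Serpinf2, both lower, and the others are C4bp, C6 and F11. The C/EBP letters TTNNGNAA stand in 17 of 28 (60.7%) beside 40.7%. The windows below are shown because they place the AhR core in both called genes that hold it. Capitals mark the match, which may be read on either strand, and the windows follow the strand of the gene, 5′ to 3′.
Vtn, AhR core, chr11:78499062-78499086, plus strand: gctaagctaaGCGTGttatccctcc
Serpinf2, AhR core, chr11:75439510-75439534, minus strand: cactgggggaGCGTGgggagcaagc
Serpinf2, downstream AhR core, chr11:75439471-75439495, minus strand: accgtgtgctGCGTGtgctgcgcta
The AhR core of Vtn starts 48 bases before the start of transcription, and those of Serpinf2 start 23 bases before and 17 bases after it. A match describes these letters alone and is no evidence of binding.

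Genes of the same systems outside the 36 were counted in the same way with the combined exposure, where 15.8% of all genes rose and 17% fell, and 11.3% passed after GC correction. Of 21 other coagulation genes, 3 rose and none fell, and the median log2FC was 0.038. They were Hrg, a plasma glycoprotein that binds heparin and plasminogen, from 1156 ± 56.1 to 1554 ± 189 CPM, F3 (tissue factor) from 3.65 ± 1.07 to 5.89 ± 0.577 CPM and F8 (factor VIII) from 9.85 ± 2.68 to 15.9 ± 2.10 CPM. The log2FC was 0.43 for Hrg (adjusted p = 0.00717), 0.68 for F3 and 0.69 for F8, and after GC correction Hrg alone passed (adjusted p = 0.0470). Of the 3 vitamin K cycle genes, which serve the factors that carry γ-carboxyglutamate, Vkorc1l1 rose with a log2FC of 0.32, and 0 of the 3 passed after GC correction. Of 24 other complement genes tested, 7 rose, 1 fell and 16 did not pass, and the median log2FC was 0.24. Among them, Cfhr2 rose by a log2FC of 0.42. C1rl, a C1r-like protease gene, fell by 0.35 on the log2 scale. After GC correction 1 of the 24 passed. C4a and Fcnb were not analysed here. Of 12 liver transcription factors, 1 rose and 3 fell, and 3 of the 12 passed after GC correction. Cebpa had a log2FC of -0.32 as fitted and 0.49 after GC correction, past the threshold in both with opposite sign.

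The labels were checked by Cyp1a2, a classical AhR target, which rose to 1590.2 ± 606 CPM with PCB 126 and 775 ± 186 with the combined exposure from 387 ± 99.4 in HFD control and 385 ± 76.2 with Aroclor. Cyp1a2 was lower with the combined exposure than with PCB 126, by a log2FC of -1.04 (adjusted p = 0.0144). Cyp1a1, a highly inducible AhR target, stood at 0.219 to 0.940 CPM in HFD control, 4.09 to 314 CPM with PCB 126 and 0.792 to 2.62 CPM with the combined exposure. It passed with PCB 126 (log2FC 6.93, adjusted p = 0.00950) and did not with the combined exposure (log2FC 1.06, adjusted p = 0.502). Between the combined exposure and PCB 126, Cyp1a1 differed by a log2FC of -5.87 (adjusted p = 0.0136). As fitted, both AhR targets thus stood lower with both agents than with PCB 126 alone. Cyp3a11, a target of the pregnane X receptor, rose with the combined exposure by a log2FC of 0.89 (adjusted p = 0.00652). These genes belong to a list of 10 PCB exposure markers. Against PCB 126, 3 of the 10 passed with the combined exposure as fitted and 1 after GC correction. Against HFD control, 2 passed as fitted and 1 after GC correction. Marker genes of liver cell types were counted beside the 32.8% of all genes that passed with the combined exposure. Of 9 hepatocyte markers, Apob rose and Ttr and Apoa1 fell with the combined exposure, and the summed level was 104835 to 110255 CPM in HFD control and 102327 to 132480.3 CPM with the combined exposure. Of 8 Kupffer cell markers 1 rose (Adgre1), with a sum of 210.2 to 489 CPM against 278 to 380.1 CPM. Of 7 endothelial markers 1 fell (Stab2), of 8 stellate cell markers 2 rose and 3 fell, of 5 cholangiocyte markers none passed, and of 7 platelet and blood markers 1 rose and 1 fell. After GC correction, 1 of the 9 hepatocyte, 1 of the 7 endothelial and 1 of the 8 stellate cell markers passed. No Kupffer cell, cholangiocyte or blood marker did, beside 11.3% of all genes. The summed ranges of the combined exposure and HFD control overlapped in the Kupffer, endothelial, stellate, cholangiocyte and blood lists as well as in the hepatocyte list, where Alb takes most of the sum. The part of cell composition in the results above was not tested.

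Some of these genes share their locus with others. C2 and Cfb lie 85 bases apart and both overlap Gm20547 on the same strand, and Klkb1 overlaps Gm45753 on the same strand, so reads there may belong to either. Masp1, Serpinc1, Serpind1, Plg, C2, Masp2, C8a and C8g overlap a gene on the opposite strand, and whether reads were counted by strand is not given in the sources used here. Kng1 and Kng2 are paralogs 28382 bases apart whose reads could be split. Values of these genes carry that uncertainty.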

How the data were processed

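Liver RNA of 20 mice was measured, 5 in each of 4 groups taken from the sample labels. The table that the authors deposited holds raw counts, a row per Ensembl gene and a column per library. Per the labels and methods, the authors sequenced stranded polyA libraries in 2 runs, checked reads with FastQC 0.10.1, used STAR 2.6 with GRCm38.p6 as the genome and made the counts with HTSeq 0.10.0. The annotation release and strand setting are not given in the sources used here, and runs are not assigned to libraries. The label of PCB 126 replicate 2 carries another number in one of its parts, and its title was followed.

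Genes summing to 10 counts or more were tested with edgeR 4.0.16 in R 4.3.3 (TMM, two-sided quasi-likelihood test, all 4 groups in 1 fit with 16 residual degrees of freedom, Benjamini-Hochberg adjustment over all tested genes). The SE is the log2FC divided by the square root of F, and 95% intervals use the test's degrees of freedom. Symbols, coordinates, exon lengths and transcript GC content came from GENCODE M21. For GC correction, a spline with 6 degrees of freedom of each library's log2 CPM deviations over GC entered as an offset. The 36 genes and the other lists were chosen with earlier results of these data known. Values per mouse are given for the 14 genes with the smallest p over the 3 exposures together and those highest and lowest per length, and for other lists up to 4 called genes are named, and some genes and 1 motif searched are not reported here. Values per mouse of C2 and C8b were added after they were seen. The fit was tested on simulated data. Alternatives were RLE and upper-quartile normalization, other filters, DESeq2 1.42.0, a replicate block, GC corrections and leaving out each mouse. The 40 same-group pairs of libraries differed by more than sampling noise. Per the methods, RNA came from 5 livers per group.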

Additional observations from a re-analysis of the deposited data

Results flagged for a closer look

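Over the 36 genes and 4 groups, 144 sets of 5 mice were checked for 1 mouse far from the others (a gap to the nearest mouse of over 0.71 of the whole range), and 9 were marked, where chance marks about 1 in 20. In the combined exposure, replicate 2 stood apart as the highest for F11 at 72.8 CPM (next 53.2), C6 at 338 CPM (next 208), C8a at 963 CPM (next 678) and C8b at 253 CPM (next 137). Replicate 4 of the combined exposure was the lowest for Mbl2 at 237 CPM (next 317). With Aroclor, replicate 4 was the highest for F12 at 267 CPM (next 231) and replicate 3 for Mbl1 at 304 CPM (next 253). With PCB 126, replicate 1 was the highest for C1s1 at 693 CPM (next 569). In HFD control, replicate 4 was the highest for C2 at 68.6 CPM (next 62.9).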

How the results depend on the processing

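With the combined exposure against HFD control, 14 genes passed, and 13 to 17 did under RLE or upper-quartile normalization, no filter, filterByExpr, the FPKM filter, the replicate block, DESeq2 (17) or a fit of only the groups compared. Over all genes, 32.8% passed in the main fit, 36.2% in DESeq2, 34.1% with the block and 4704 of 8994 with the FPKM filter. RLE called 5104 and upper-quartile normalization 5211 of 15522 genes. No filter gave 4974 of 17279 genes, filterByExpr 5347 of 12838 and the groups compared alone 4183 of 15050. At an adjusted p under 0.01, 9 of the 36 passed, beside 2867 of 15522 genes. GC correction left 2 beside 11.3%, with the replicate block 3 beside 1818 genes and with gene length 2 beside 1767 genes. A covariate holding each library's GC slope and a fit without combined-exposure replicates 4 and 5 were chosen after seeing the data. They left 0, beside 3.43% of all genes, and 3 (F9, Masp1 and Proc), beside 13.2% of all genes. Leaving out 1 mouse gave 12 to 15 of the 36. Over all genes, these fits called from 3894 of 15477 to 5679 of 15376. F5 was lost without control replicates 1, 2 or 3, Aroclor replicates 4 or 5, PCB 126 replicates 1, 2, 4 or 5, or combined-exposure replicates 1, 2, 4 or 5.

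Against PCB 126, 9 passed and 0 to 11 did with 1 mouse left out. None did at an adjusted p under 0.01, with any GC correction (with the block or gene length too), with the GC slope covariate or without combined-exposure replicates 4 and 5, and 5 did with only the groups compared. Over all genes, GC correction called 1.22%, with the block 484 and with gene length 300 of 15522, and only the groups compared 2079 of 14876. The stricter threshold, the slope covariate and the fit without those replicates called 0 of all genes. Against Aroclor, 0 passed, but 1 (Serpinf2) did with upper-quartile normalization, filterByExpr, the FPKM filter, the replicate block or DESeq2, and 0 to 2 did with 1 mouse left out (1 without control replicate 4 or combined-exposure replicate 3, and Serpinf2 and C4b without combined-exposure replicate 1). Over all genes, those settings called 251 of 15522, 292 of 12838, 636 of 8994, 3.06% and 8.65%, and those fits without 1 mouse called 513, 1036 and 291 genes. Single exposures and the interaction gave 0 in each of these settings, except that the GC slope covariate gave 1 (Masp2) with PCB 126, beside 4.92% of all genes.

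Signs changed for some genes against HFD control. With the GC slope covariate, the log2FC was -0.15 for F5, -0.00080 for F9, 0.033 for F10, -0.19 for F13b, 0.11 for Proc, -0.033 for Pros1 and 0.031 for C8g, and against PCB 126 it was 0.051 for Proc and 0.0011 for C8g. For GC correction alone, with the block and with gene length, F7 had 0.00014, 0.00036 and 0.062, C3 had 0.074, 0.072 and 0.058 and Masp2 had -0.061, -0.056 and -0.025. Without combined-exposure replicates 4 and 5, C3 had 0.034. The cause was not tested.

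The labels do not say that mice of the same replicate number are paired. Over 30 same-numbered pairs, deviations from the group means correlated at -0.31 to 0.55 (median 0.030), with 12 over 0.1. The block gave 15 genes with the combined exposure against HFD control, beside 34.1% of all genes. Over all genes, the block called 0.168% with Aroclor and 0.651% with PCB 126, where the fit without it called 0% and 0.116%. For the combined exposure against Aroclor these shares were 3.06% and 0.412%, and for the interaction 0.245% and 0%. Depth limits none of the 36 genes, and the number of mice sets the precision.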
